A study of Cicer arietinum with 24 samples.

Results

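Genes with a similar level in the chickpea seed from its first to its last sampled stage and almost no signal in leaf are described here. They were selected on the measured values: a gene had to be under 0.5 FPKM (a fragment count scaled by transcript length and library size) in leaf and at 1 FPKM or more in each of 7 seed stages. In addition, its highest seed stage had to be under 4 times its lowest and under 2 times its second highest, and S2 under 2 times the highest of S3 to S7. The rule was applied to the 23943 gene identifiers that occur once and are not joined to another, and it found 34 genes. A total of 4116 identifiers met the limits on the seed stages whatever their leaf value, so the 34 genes made up 0.826% of the identifiers that were level in seed. Since every value of these genes entered the choice, the difference between seed and leaf and the level course over the stages are descriptions and not findings.

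The samples were whole seeds at 7 stages and leaves of the small-seeded cultivar Himchana 1, all from plants grown in the field. The stages S1, S2 and S3 were early-, mid- and late-embryogenesis, S5 was mid-maturation and S7 late-maturation, while S4 and S6 fell between the named stages. Leaves came from mature plants at the time when seeds were at mid-maturation. There were 3 biological replicates of each of the 8 groups (24 samples), and the deposited values hold 1 merged FPKM value per group, so that no value given here has a replicate error or a test. A whole seed holds several tissues, and the endosperm of chickpea is used up in the course of development, so the tissue make-up of the samples changes along the stages. In such bulk samples fewer cells of a type and less RNA per cell cannot be told apart.

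A legume seed first builds its embryo by cell division. During maturation the cotyledons are filled with reserves and then dry out. Many genes used for this are kept silent in leaves, and in Arabidopsis the master regulators of seed development are among the genes that chromatin repressors shut off after germination. The best-known seed genes, those for storage proteins and for desiccation tolerance, act mainly in maturation, so a similar level in embryogenesis and maturation is another kind of seed pattern.

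Of the 23943 identifiers, 10733 were under 0.5 FPKM in leaf, and only 151 of these were at 1 FPKM or more in every seed stage. The other 117 of the 151 all exceeded the 4-fold limit on the seed stages, 32 of them also the limit on the second highest stage and 9 also the limit on S2. The last 2 limits therefore removed no gene that the 4-fold limit had kept. None of the 34 identifiers is paired with a gene name, coordinates or a sequence in the sources used here. The genes are therefore given by identifier, and the roles of most are unknown here. The leaf and seed samples were not checked by named marker genes of either organ.

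**Figure D1:**
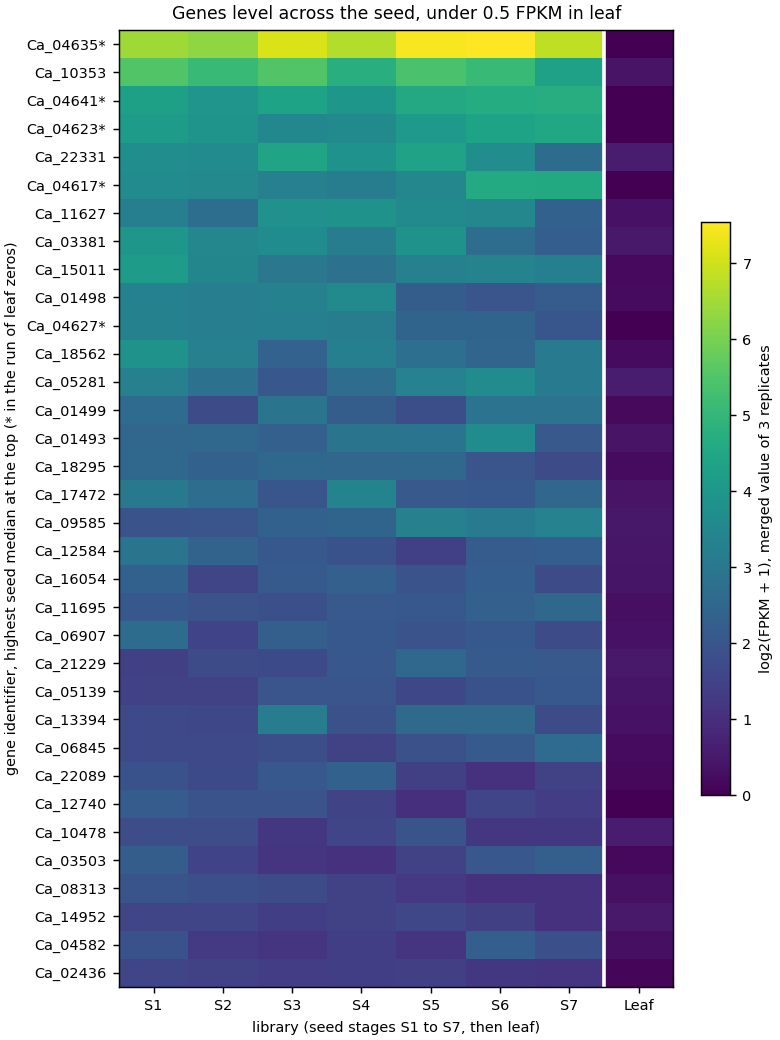
Level of each of the 34 genes as log2(FPKM + 1) (colour) in the 7 seed stages and in leaf (columns), with the highest seed median at the top and an asterisk on the 5 genes listed at 0 in leaf. Ca_04635 stands above all others in every seed stage, and the leaf column is dark throughout because the rule required it.

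The 34 genes were mostly expressed at low levels. The median over the 7 stages was 10 FPKM or more for 8 genes, between 5 and 10 FPKM for 6, between 2 and 5 FPKM for 13 and under 2 FPKM for 7. The middle of these medians was 4.51 FPKM, against 16.2 FPKM over the 4116 identifiers level in seed. The absolute limit on leaf favours genes of low level, so this contrast is partly built into the rule. It left out 15 identifiers level in seed whose leaf value was more than 10-fold below their lowest seed stage. Their seed medians lay between 9.86 and 203 FPKM. Over the identifiers level in seed, the median in leaf was 16.4 FPKM, close to the 16.2 FPKM in seed. As deposited, leaf was below the lowest seed stage in 1335 of them, above the highest in 1020 and within the seed range in 1761. Among the 4111 above 0 in leaf, leaf was below the lowest seed stage in 1330 as deposited. That count became 593 with the libraries given the same sum, 1099 with the median ratio and 1188 with the upper quartile. The summed FPKM of the 34 genes lay between 275 (S2) and 425 (S6) in seed and was 8.08 in leaf.

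In leaf, 5 of the 34 genes were listed at 0, 2 were above 0 and under 0.1 FPKM, 13 were from 0.1 to 0.3 FPKM and 14 were above 0.3 FPKM. A value listed at 0 can be a failed estimate, so no fold is given against it. On the log2(FPKM + 1) scale, which understates the difference of genes with low values, the seed mean was above leaf by a median of 2.18 over the 34 genes, against 0.19 over the identifiers level in seed. For the 29 genes above 0 in leaf, the seed median was 4.00- to 178-fold the leaf value (median 15.2-fold). Their lowest seed stage was 2.48- to 91.3-fold the leaf value (median 9.65-fold), and at least 10-fold for 14 of the 29. With the libraries rescaled in any of 3 other ways, the lowest seed stage was above leaf in these 29 genes, which the rule had chosen for that distance, and the smallest of the ratios came down to 1.08-fold when the libraries were given the same sum.

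**Figure D2:**
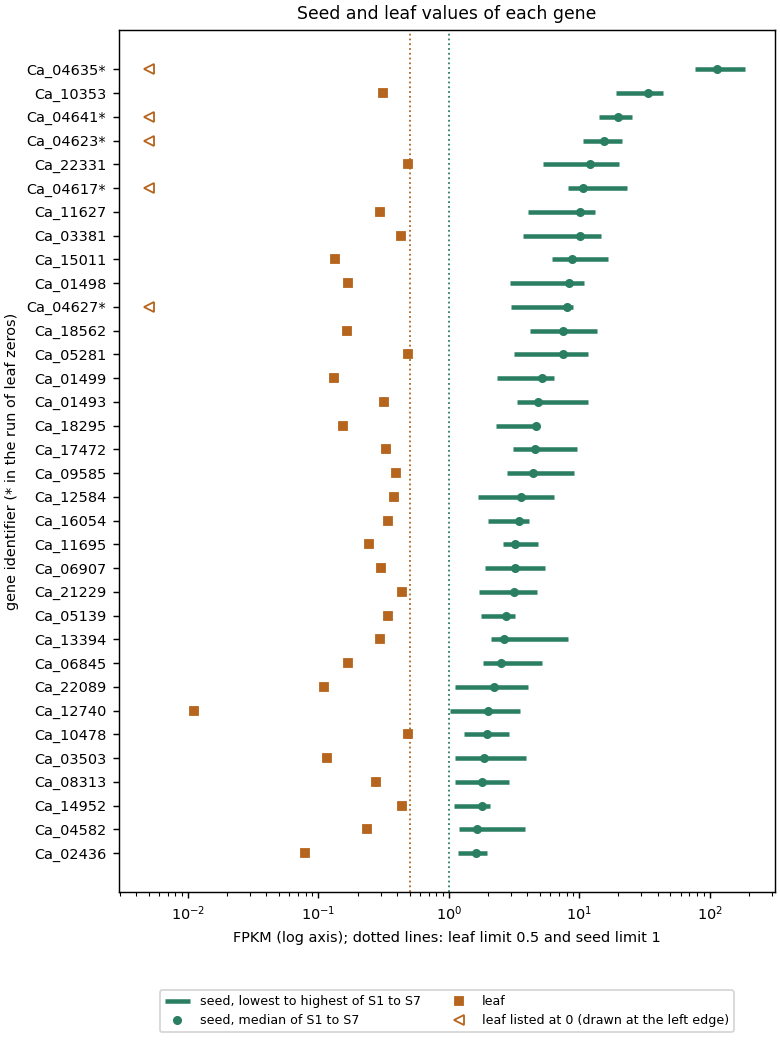
Range (bars) and median (circles) of each gene over the 7 seed stages, and its leaf value (squares), in FPKM on a log axis, with genes ordered by seed median and open triangles at the left edge for leaf values listed at 0. The gap between leaf and the lowest seed stage is widest for Ca_12740 (91.3-fold) and narrowest for Ca_14952 (2.48-fold) among the 29 genes above 0 in leaf.

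All 5 genes listed at 0 in leaf came from 1 stretch of the table. Ca_04617, Ca_04623, Ca_04627, Ca_04635 and Ca_04641 lay in a run of 50 consecutive loci, from the locus that joins Ca_04614 and Ca_04616 to Ca_04666, and every locus of the run was listed at 0 in leaf. In seed the same loci were far from silent. Their median over the stages was 1 FPKM or more for 26 of the 50 loci and 10 FPKM or more for 15, and 7 loci were listed at 0 in all 8 libraries. The highest, Ca_04636, was between 990 (S2) and 8391 FPKM (S7) in seed and was also listed at 0 in leaf.

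The loci on either side of the run had ordinary leaf values. Ca_04613, just before it, was between 34.0 (S2) and 184 FPKM (S7) in seed and at 49.7 FPKM in leaf. Ca_04668, just after it, was between 36.3 (S3) and 226 FPKM (S7) in seed and at 25.2 FPKM in leaf. The zeros thus began and ended abruptly in table order. Among all identifiers at 1 FPKM or more in every seed stage, 0.228% (21 of 9224) were listed at 0 in leaf, and 12 of these 21 were in the run, 5 of them among the 34 genes and 7 outside the 4-fold limit.

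**Figure D3:**
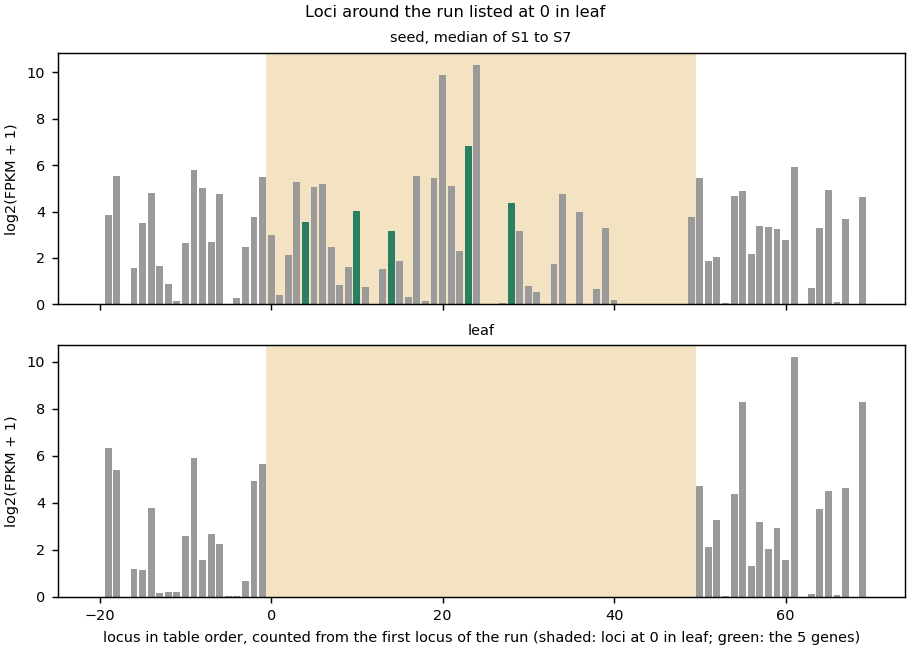
Level as log2(FPKM + 1) of the loci in table order, numbered from the first locus of the run, as the median over the seed stages (top) and in leaf (bottom), with the 50 loci at 0 in leaf shaded and the 5 selected genes in green. Bars are present in the shaded stretch in seed, up to Ca_04636 with a median of 1278 FPKM, and none is present there in leaf.

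Shorter runs of this kind occurred in other libraries. For each library, the run of zeros with the most loci at a median of 1 FPKM or more in the other 7 libraries was taken. It held 20 loci at S3 and the same 20 at S5 (Ca_09956 to Ca_09976, 13 of them at that level), and no more than 10 loci with 5 or fewer at that level at S1, S2, S4, S6 and S7. In leaf it held the 50 loci above, 26 of them at that level. Whether the leaf zeros of the run arose in the estimation of FPKM was not tested, and the main counts and medians below are also given without the 5 genes.

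The 5 genes of the run included the highest of all 34. Ca_04635 was at 88.7, 77.2, 137, 101, 178, 186 and 113 FPKM from S1 to S7 and listed at 0 in leaf. It was lowest at S2 and highest at S6, by 2.41-fold, although its highest stage was S3 or S5 under the other scalings described below. Ca_04641 was at 18.4, 14.3, 19.8, 14.9, 22.4, 24.6 and 25.3 FPKM from S1 to S7 and listed at 0 in leaf. With 1.77-fold between its highest and lowest stage, it was the flattest of the genes above 10 FPKM.

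Ca_04623 had 16.6, 13.9, 10.6, 11.001, 15.5, 19.9 and 21.4 FPKM from S1 to S7 and 0 in leaf, dipping at S3 and S4. Ca_04617 had 11.4, 10.7, 8.78, 8.20, 10.2, 23.4 and 23.3 FPKM from S1 to S7 and 0 in leaf. Its first 5 stages were close together and its last 2 stood above them, except that S2 was highest with the same sum in each library. Ca_04627 had 8.99, 8.45, 8.56, 8.004, 4.37, 4.40 and 3.02 FPKM from S1 to S7 and 0 in leaf. As deposited, it alone of the 5 genes was lower at S7 than at S1. Scaling by the median ratio or the upper quartile put S7 below S1 also for Ca_04635 (0.883- and 0.729-fold), Ca_04641 (0.950- and 0.784-fold) and Ca_04623 (0.891- and 0.736-fold), and the same sum put it below for all 5 genes.

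Without these 5 genes, 29 remained with a seed median between 1.63 and 33.9 FPKM (median 3.44 FPKM) and a leaf value between 0.0112 and 0.491 FPKM (median 0.299 FPKM). The median log2 difference between the seed mean and leaf was 1.83 for these 29 genes and 4.05 for the 5 genes of the run. Only 4 of the 29 had a seed median of 10 FPKM or more, against 4 of the 5 in the run. For the genes that follow, the highest and lowest stages are those of the deposited values unless another scaling is named.

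The highest gene outside the run was Ca_10353, with 44.1, 33.9, 44.2, 25.5, 41.0, 33.7 and 19.1 FPKM from S1 to S7 and 0.314 FPKM in leaf. Even its lowest stage, S7, was 60.8-fold the leaf value. Ca_22331 had 12.02, 11.6, 20.3, 13.6, 19.3, 12.1 and 5.31 FPKM from S1 to S7 and 0.484 FPKM in leaf, and Ca_11627 had 8.60, 5.63, 13.1, 13.3, 11.2, 10.2 and 4.03 FPKM from S1 to S7 and 0.298 FPKM in leaf. Both were highest at S3 or S4 and lowest at S7.

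Ca_03381 had 14.8, 10.2, 11.7, 8.26, 13.7, 5.55 and 3.73 FPKM from S1 to S7 and 0.429 FPKM in leaf. It stayed at 8.26 FPKM or more up to S5 and was lower at S6 and S7. Ca_15011 had 16.5, 10.1, 7.00, 6.16, 8.81, 9.33 and 8.50 FPKM from S1 to S7 and 0.133 FPKM in leaf. Its lowest deposited value was in mid-course at S4, but the 3 other scalings lower S7 relative to S4. Ca_01498 had 9.06, 8.30, 8.98, 10.9, 3.72, 2.96 and 3.62 FPKM from S1 to S7 and 0.169 FPKM in leaf. Its 4 earlier stages were all above its 3 later ones, and the mean of S5 to S7 was 3.43 FPKM, against 8.78 FPKM for S1 to S3.

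Ca_01498 had close neighbours by number among the selected genes. Ca_01499, the next identifier, had 5.20, 2.35, 6.45, 3.64, 2.51, 6.36 and 6.41 FPKM from S1 to S7 and 0.131 FPKM in leaf. Ca_01493 had 4.63, 4.85, 3.97, 6.52, 6.45, 11.6 and 3.31 FPKM from S1 to S7 and 0.319 FPKM in leaf. The 3 courses had little in common, and the 4 identifiers between Ca_01493 and Ca_01498 were at 1.23 to 12.5 FPKM in leaf, so this was not another run of leaf zeros.

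At intermediate levels, Ca_18562 was at 13.8, 8.79, 4.17, 8.57, 5.71, 4.50 and 7.55 FPKM from S1 to S7 and at 0.167 FPKM in leaf. Ca_05281 was at 8.68, 6.08, 3.15, 5.53, 9.22, 11.6 and 7.47 FPKM from S1 to S7 and at 0.487 FPKM in leaf. Both were lowest at S3. Ca_17472 was at 7.33, 5.66, 3.09, 9.65, 3.27, 3.26 and 4.60 FPKM from S1 to S7 and at 0.331 FPKM in leaf, also with its lowest value at S3 but next to its highest at S4. Ca_18295 was at 4.69, 4.03, 4.82, 4.64, 4.75, 3.00 and 2.30 FPKM from S1 to S7 and at 0.154 FPKM in leaf, and it hardly moved before S6.

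Some genes had an isolated high or low stage. Ca_13394 was at 2.19, 2.10, 8.25, 2.64, 5.15, 5.13 and 2.41 FPKM from S1 to S7 and at 0.299 FPKM in leaf, so that S3 stood out. Ca_12584 was at 6.46, 4.31, 3.25, 2.75, 1.67, 3.59 and 3.79 FPKM from S1 to S7 and at 0.378 FPKM in leaf, with a trough at S5. Ca_12740 also had its trough at S5, with 3.55, 2.80, 2.81, 1.95, 1.02, 1.99 and 1.56 FPKM from S1 to S7, and at 0.0112 FPKM it had the lowest leaf value above 0. Its ratio of seed median to leaf (178-fold) is the highest of the 29 genes, but it rests on a leaf value whose precision is unknown.

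The 5 flattest genes differed by 1.65- to 1.88-fold between their highest and lowest stage. The flattest, Ca_02436, was at 1.96, 1.83, 1.57, 1.63, 1.72, 1.33 and 1.18 FPKM from S1 to S7 and at 0.0794 FPKM in leaf. Besides Ca_04641, the others were Ca_05139 (1.77 to 3.20 FPKM in seed, 0.340 FPKM in leaf), Ca_11695 (2.59 to 4.82 FPKM in seed, 0.245 FPKM in leaf) and Ca_14952 (1.09 to 2.05 FPKM in seed, 0.441 FPKM in leaf). Of these 5 flattest genes, 4 were under 5 FPKM at every stage, and low values were common in the whole set, with a seed median under 5 FPKM in 20 of the 34 genes. Over all 34 genes the ratio of highest to lowest stage was under 2 for 5, from 2 to 3 for 14 and above 3 for 15, with a median of 2.87 (3.12 for the 29 outside the run), against 2.58 over the 4116 identifiers level in seed.

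The 5 genes with the highest leaf values were Ca_10478 (1.32 to 2.91 FPKM in seed, 0.491 FPKM in leaf), Ca_05281, Ca_22331, Ca_14952 and Ca_21229 (1.69 to 4.73 FPKM in seed, 0.439 FPKM in leaf). Ca_10478 and Ca_14952 were low in seed too, and their lowest seed stages were only 2.69- and 2.48-fold their leaf values. Ca_22331, with nearly the same leaf value, had a lowest seed stage 10.97-fold the leaf value. The same limit on leaf thus took in genes with very unequal distance between seed and leaf.

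Just outside the leaf limit were Ca_05436, Ca_18717 and Ca_09685, with 0.529, 0.538 and 0.539 FPKM in leaf, and 38 identifiers level in seed had between 0.5 and 1 FPKM in leaf. At the limit on the lowest seed stage, Ca_12740 (1.02 FPKM), Ca_14952 (1.09 FPKM) and Ca_08313 (1.11 FPKM) were just inside, and Ca_17362 (0.996 FPKM), Ca_23120 (0.983 FPKM) and Ca_08667 (0.772 FPKM) just outside. At the limit on the ratio of highest to lowest stage, Ca_03381 (3.97), Ca_13394 (3.92) and Ca_12584 (3.87) were just inside, and Ca_04616 (4.01), Ca_02595 (4.03) and Ca_03720 (4.06) just outside. Ca_04616 belongs to the run listed at 0 in leaf. The genes nearest to the limit on the second highest stage were Ca_01493 (1.79), Ca_15011 (1.64) and Ca_13394 (1.60), and that limit alone removed none.

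The stage at which a gene was highest was spread over most of seed development. The highest value fell at S1 in 10 of the 34 genes, at S3 in 5, at S4 in 4, at S5 in 3, at S6 in 5 and at S7 in 7, and at S2 in none. Of the identifiers level in seed, 8.14% were highest at S2, much as at S3 (9.55%) and S4 (7.94%), and 15.5% were highest at S1. Without the 5 genes of the run, the 29 others were highest at S1 in 9, at S3 in 5, at S4 in 4, at S5 in 3, at S6 in 3 and at S7 in 5. The lowest value was at S7 in 10 of the 34 genes (9 of the 29) and at S2 in 7 (5 of the 29). It fell at S6 or S7 in 13 of the 34 genes as deposited and in 24, 20 and 22 with the same sum, the median ratio and the upper quartile, beside 26.8%, 56.4%, 48.6% and 52.5% of the identifiers level in seed. With S6 and S7 together, 12 of the 34 genes (8 of the 29 outside the run) were highest late, beside 45.5% of the identifiers level in seed. This count too depends on how the libraries are scaled to each other, since it was 0 with the same sum in each library, 3 with scaling by the median ratio and 3 with scaling by the upper quartile, beside 0.437%, 22.2% and 16.0% of the level identifiers.

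**Figure D4:**
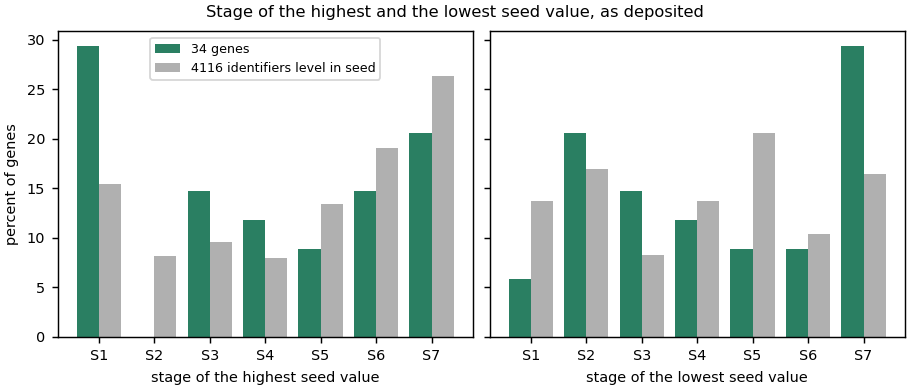
Percent of genes (y axis) with their highest (left) or lowest (right) deposited seed value at each stage (x axis), for the 34 selected genes (green) and the 4116 identifiers level in seed (grey). The selected genes were most often highest at S1 (29.4%, grey 15.5%) and most often lowest at S7 (29.4%, grey 16.4%), and none was highest at S2 (grey 8.14%).

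Between the ends of the series, S7 was at least 2-fold below S1 in 10 of the 34 genes (9 of the 29 outside the run) and at least 2-fold above it in 3 (2 of the 29), beside 12% and 18.8% of the identifiers level in seed. The mean of S5 to S7 was below that of S1 to S3 in 19 of the 34 genes (18 of the 29 outside the run and 1 of the 5 inside), beside 40.6% of the level identifiers. The genes at least 2-fold below became 29, 20 and 21 of the 34 (25, 19 and 20 of the 29) with the same sum, the median ratio and the upper quartile, beside 67.5%, 26.3% and 36.3% of the level identifiers. Those at least 2-fold above became 0, 1 and 0, beside 0%, 5.76% and 1.63%. The sums of FPKM over all loci ran from 723136 (S2) to 2515731 (S7) in seed and were 1099779 in leaf. The 75th percentile with loci at 0 included stayed between 10.7 and 11.7 FPKM. Giving the libraries the same sum therefore divides S7 by 1.75 and S1 by 0.576. Scaling by the upper quartile used the 75th percentile of the values above 0 in each library, and it divides S7 by 1.43 and S1 by 0.816. Directions over the stages are thus relative to the scaling chosen.

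The largest ratio of S7 to S1 belonged to Ca_09585, with 2.80, 2.95, 4.10, 4.42, 8.80, 7.45 and 9.17 FPKM from S1 to S7 and 0.392 FPKM in leaf. Its log2 ratio was 1.71, and S7 remained above S1 under the 3 other scalings (1.08-fold with the same sum, 2.26-fold with the median ratio and 1.87-fold with the upper quartile). Ca_06845 had 2.15, 2.15, 2.53, 1.82, 2.65, 3.44 and 5.19 FPKM from S1 to S7 and 0.170 FPKM in leaf, a log2 ratio of 1.27. For Ca_06845 and for Ca_04617 (log2 ratio 1.03), S7 was below S1 once the libraries had the same sum (0.796- and 0.673-fold) and above it under the other scalings.

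The lowest ratios of S7 to S1 belonged to Ca_03381 (log2 ratio -1.99), Ca_04627 (-1.57) and Ca_08313 (-1.37). Ca_08313 had 2.89, 2.59, 2.39, 1.81, 1.40, 1.11 and 1.12 FPKM from S1 to S7 and 0.275 FPKM in leaf, a nearly even descent to S6. The 3 other scalings all lower S7 relative to S1 and leave these directions as they are.

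How alike the courses of the 34 genes were depended on the scaling. As deposited, across the 561 pairs, Pearson's r of log2 FPKM over the 7 stages had a median of 0.05, with 263 pairs under 0, 7 pairs at 0.9 or more and the lowest at -0.97. The median over the 406 pairs outside the run was 0.07. With the same sum in each library the median over the 561 pairs was 0.78, with 4 pairs under 0, with the median ratio it was 0.16 and with the upper quartile 0.36. The points share 7 libraries and their scaling, so these values are a description. As deposited, the genes most like Ca_04635 were Ca_13394 (r = 0.80), Ca_09585 (0.75), Ca_04641 (0.74), Ca_21229 (0.68) and Ca_01493 (0.54), of which only Ca_04641 came from the same run.

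The closest pairs as deposited were made of genes that lay apart in the table. Ca_04623 and Ca_03503 had r = 0.94, and Ca_03503 was at 3.65, 1.86, 1.18, 1.12, 1.81, 3.12 and 3.91 FPKM from S1 to S7 and at 0.116 FPKM in leaf, with the same dip at S3 and S4. Ca_01498 and Ca_22089 had r = 0.93, and Ca_22089 was at 2.75, 2.23, 3.21, 4.07, 1.67, 1.12 and 1.79 FPKM from S1 to S7 and at 0.111 FPKM in leaf. Both were highest at S4 and lowest at S6.

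The genes were looked up on the lists that the study gives for seed processes and for seed size/weight quantitative trait loci (QTLs). These lists hold genes with differential methylation or expression, so they are not independent of expression. Of 2130 listed identifiers in the table, 439 were level in seed and 3 were among the 34 genes. These 3 are 8.82% of the 34 genes, close to the listed share of the identifiers level in seed (10.7%) and of all identifiers the rule was applied to (8.90%). Of the 337 on the cell cycle list, 74 were level in seed and 1 was selected, and of the 891 on the QTL list 217 were level and 2 were selected. None of the 176 cell growth, 148 desiccation, 718 differentiation or 167 grain filling genes, and none of the 5 DNA methyltransferase and 4 demethylase genes in the table, was selected. Of these, in the same order, only 29, 11, 131, 27, 2 and 0 were level in seed. The rule selected 0.826% of all identifiers level in seed, and at that share lists of this size hold few or no selected genes.

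Ca_06907, the cell cycle gene, was at 5.42, 1.88, 3.87, 3.20, 2.81, 3.25 and 2.31 FPKM from S1 to S7 and at 0.302 FPKM in leaf. As deposited, it was highest in early-embryogenesis and lowest in the next stage. The 3 other scalings lower S7 relative to S2, so its lowest stage is relative to the scaling chosen. Of the QTL genes, Ca_16054 was at 4.09, 2.00, 3.44, 3.95, 2.82, 3.74 and 2.28 FPKM from S1 to S7 and at 0.341 FPKM in leaf. Ca_04582 was at 2.74, 1.42, 1.25, 1.64, 1.20, 3.82 and 2.61 FPKM from S1 to S7 and at 0.236 FPKM in leaf, with its upper values at S6, S1 and S7. All 3 were at least 5.07-fold above leaf at their lowest stage.

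To see how often a low value stands alone in other libraries, identifiers were counted that were under 0.5 FPKM in 1 library and level, by the same 1 FPKM and 4-fold and 2-fold limits, in the other 7. With a seed stage in the place of leaf, there were 1 at S1, 2 at S4, 14 at S5 and 6 at S7, and none at S2, S3 and S6, of 3013 to 3397 identifiers level in the other 7 libraries. With leaf in that place there were 34 of 4126. As deposited, low values that stood alone were therefore more numerous in leaf than in any seed stage, and S5 came next. The counts for the seed stages are given only as deposited. Of these, 5 in leaf, 4 at S5 and 1 at S7 were listed at 0. The 5 in leaf were the genes of the run, and without them leaf had 29, of which 0 were listed at 0. The leaf is another organ and the seed stages are one organ, so these counts are a description of the libraries.

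**Figure D5:**
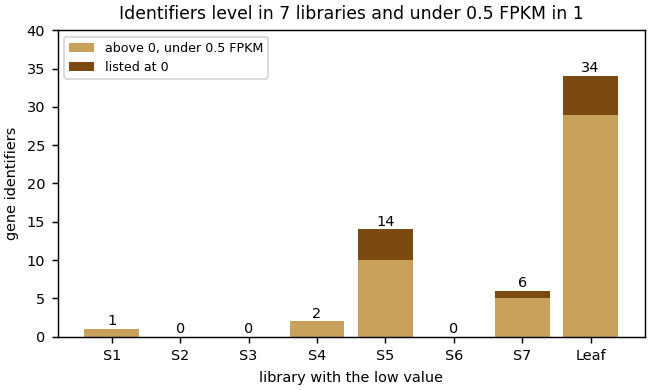
Number of gene identifiers (y axis) under 0.5 FPKM in the library named on the x axis and level in the other 7 libraries, split into values above 0 (light) and values listed at 0 (dark). Leaf has 34 (29 without the run of leaf zeros), S5 has 14, S7 has 6 and the other seed stages have 2 or fewer.

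The membership also depends on the scaling. With the same sum in each library, 7 of the 34 genes met all limits, with the median ratio 20 and with the upper quartile 16. The 7 genes that met them under all 3 scalings were Ca_04635, Ca_04641, Ca_04623 and Ca_04617 of the run, and Ca_11695, Ca_05139 and Ca_06845 outside it. Most of the losses came from the 4-fold limit on the seed stages, which 24, 9 and 14 genes missed under the 3 scalings. The limit of 1 FPKM on the lowest seed stage was missed by 7, 4 and 6 genes and the leaf limit by 7, 3 and 3. A value listed at 0 stays at 0 under any scaling, so the genes of the run could not miss the leaf limit.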

How the data were processed

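The authors' reads were cleaned (NGS QC Toolkit), aligned by TopHat and summarised as FPKM by Cufflinks (Cuffdiff 2.0.2 is named in the submitters' processing notes). The values they deposited are FPKM per locus, 1 merged value per group; how the 3 replicates were merged and the libraries scaled, and the genome build for these reads, are not given in the sources used here. Depth is unknown, so low values are of unknown precision. Of 35234 loci, 7268 without a gene identifier, 1661 with joined identifiers and 2362 with a repeated identifier were left out of the rule. None of the identifiers was found among the 29938 RefSeq genes given for the assembly Cicar.CDCFrontier_v2.0, so no names, coordinates or sequences are given (the names the paper gives belong to none of the 34 genes). Columns of no sample numbered 0.

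Differences are log2(FPKM + 1). The members and lists were chosen with earlier results of these data known. Genes to be named were the 10 highest by seed median, the 5 flattest, the 5 highest in leaf, 3 on each side of each limit, those on study lists, the 3 highest and 3 lowest by S7 over S1 and the 5 most like the top gene; the rest were added to account for all 34. Alternatives were other limits, pseudocounts, scalings and stages left out. The code of the rule was run on simulated data in which only planted genes could pass, which checks the code and not the choice of genes. Scripts ran in Python 3.11.15 with pandas 2.3.3, numpy 2.4.6 and matplotlib 3.10.9.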

Additional observations from a re-analysis of the deposited data

Results flagged for a closer look

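Loci outside the identifiers used also met all limits of the rule. There were 2 loci without a gene identifier (0.292 and 0.410 FPKM in leaf, neither in the run of leaf zeros), 3 loci with joined identifiers, all in the run and listed at 0 in leaf, and 3 loci with a repeated identifier, of which Ca_04615 and Ca_04642 were in the run and listed at 0 in leaf and Ca_26687 was at 0.171 FPKM in leaf. They were not among the 34 genes, and they were singled out because they lie in loci that no comparison above uses. The highest by seed median was the locus that joins Ca_04618 and Ca_04619, with 32.4, 41.8, 14.4, 22.7, 23.8, 45.3 and 36.5 FPKM from S1 to S7.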

How the results depend on the processing

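Values are merged, depth is unknown and no error or test can be given. The number of genes, 34, became 7 with leaf under 0.1 FPKM, 72 with leaf under 1 FPKM, 21 with every seed stage at 2 FPKM or more, 19 and 52 with limits of 3 and 6 times on the seed stages, and 14 with the same sum in each library (7 of them among the 34). It was 28 (20 among the 34) with the median ratio, 23 (16 among the 34) with the upper quartile, 43 with every seed stage at 0.5 FPKM or more, 38 with the loci of an identifier summed and 36 to 49 without 1 seed stage, lowest without S4 and highest without S5. The median log2 difference between seed mean and leaf, 2.18, was 3.66 and 4.21 with pseudocounts of 0.1 and 0.01, 4.05 over the genes at 5 FPKM or more in every seed stage and 1.498 with the lowest seed stage in place of the mean. It lay between 2.08 and 2.28 under other scalings and without each stage. The genes at 5 FPKM or more in every seed stage were Ca_04635, Ca_04641, Ca_04623 and Ca_04617 of the run and Ca_10353, Ca_22331 and Ca_15011 outside it. Their median of 4.05 is the value of Ca_04623, which was listed at 0 in leaf. The 12 genes highest at S6 or S7 became 0 with the same sum, 3 with the median ratio and 3 with the upper quartile.

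Leaving out the run of loci at 0 in leaf was chosen after seeing the data, as were the correlations, the lowest stage and the S7 to S1 counts under other scalings. Leaving out the run gave 29 genes, a median log2 difference of 1.83, 8 genes highest at S6 or S7, and 0 genes listed at 0 in leaf in place of 5. No paired analysis was possible because each group has 1 merged column that carries no replicate number, and for the same reason leaving out each replicate was not run.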

Other observations

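The limit on leaf is absolute, and a relative limit picks other genes. Among the 4116 identifiers level in seed, 34 had a leaf value more than 10-fold below their lowest seed stage or listed at 0, and 19 of these were among the 34 genes described above. The other 15 had 0.539 to 4.59 FPKM in leaf and were too high there for the absolute limit. The highest of them, Ca_09325, was at 405, 330, 203, 138, 244, 110 and 117 FPKM from S1 to S7 and at 4.59 FPKM in leaf. Ca_09575 was at 122, 107, 134, 201, 115, 142 and 97.3 FPKM from S1 to S7 and at 1.33 FPKM in leaf, so that its lowest stage was 73.4-fold above leaf. These genes and the relative limit were chosen after the values were seen.

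Outside the run, 16 loci were at 1 FPKM or more in every seed stage and listed at 0 in leaf, and none of them was level in seed. Ca_07604 was at 35.0, 22.5, 30.0, 32.6, 67.9, 237 and 60.3 FPKM from S1 to S7, and Ca_07391 was at 3.46, 16.8, 62.1, 53.0, 158, 1233 and 802 FPKM. Both were highest at S6. Ca_03192 was at 56.4, 87.4, 90.3, 77.0, 10.2, 1.27 and 1.21 FPKM and thus highest in embryogenesis. These genes were also chosen after their values were seen.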
